A study of Mus musculus with 41 samples.

Results

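Immediate early genes are transcribed within minutes of a stimulus from factors that already wait in the cell, without new protein synthesis. The 10 immediate early genes described here, Fos, Fosb, Jun, Junb, Egr1, Egr3, Ier2, Atf3, Arc and Dusp1, were chosen by name and make up 10 of the 34591 entries of an RNA-seq table of mouse brain tumors and neural cultures. Growth factors, stress and synaptic activity reach these genes through MAP kinases that phosphorylate serum response factor partners, and through calcium and cyclic AMP that act on CREB. Most of the proteins are transcription factors, and Dusp1 and a few others feed back to switch the signal off, so the transcripts rise and decay quickly. In brain tissue they are known as markers of recently active neurons and also as genes that respond to the handling of tissue and cells.

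The study used a mouse H3f3a knock-in in which Cre removes a stop cassette so that the locus makes tagged histone H3.3, either with lysine 27 replaced by methionine (K27M, the mutation of diffuse midline glioma) or wild-type (WT-Tag). The 20 K27M and 9 WT-Tag tumors were brainstem tumors of mice that also carried Nestin-creERT2, a Cre-dependent mutant PDGF receptor (LSL-PDGFRαV544ins) and Trp53flox/flox, all heterozygous for the H3f3a allele. The 12 cultures were neurospheres, free-floating aggregates of neural precursors, from forebrain or hindbrain of E15.5 embryos, with Nestin-cre and the same H3f3a alleles but without the receptor and Trp53 alleles, 3 libraries per region and genotype. WT-Tag libraries were the controls and carried Cre and the tag as well. Both Cre drivers use Nestin elements, which are active in neural precursors, and tumor pieces also hold other cells. Tumor pieces had been snap frozen, and culture cells were dissociated before lysis.

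Levels are given as FPKM, fragments per kilobase of transcript scaled by the mapped fragments of the library. Relative depth was estimated, over genes with low values, from the most common ratio of values between each library and a reference library. It ran from 0.423 to 1.77 over the K27M tumors, from 0.824 to 1.72 over the WT-Tag tumors and from 0.747 to 1.15 in the cultures. Absolute depth was not known. The summed level of 9 neural stem and progenitor markers was 2073 to 2519 FPKM in cultures and 148 to 1259 in tumors. Microglial markers, which the cultures nearly lacked (11.9 to 21.1 FPKM for 13 markers), summed to 251 to 918 FPKM in tumors. Forebrain identity genes marked the forebrain cultures (12.2 to 18.7 FPKM summed over 8 genes, against 0.093 to 0.301 in hindbrain cultures). Of these 8, 3 had a median of at least 1 FPKM in each forebrain group, and Emx1 and Dlx5 stayed under 0.1 in every forebrain culture. Hindbrain identity genes were low in the K27M hindbrain cultures (1.21 to 1.26 FPKM summed over 10 genes, with 6 of them under 0.1 in every library). The same 10 genes summed to 2.93 to 11.85 FPKM in WT-Tag hindbrain cultures and to 0.026 to 0.22 in forebrain cultures. The Xist level went against the sex label in WT-Tag tumors 8 and 9, and in culture experiment 3 the WT-Tag cultures were labelled male and the K27M cultures female. In such bulk samples, fewer cells of a type and less RNA per cell cannot be told apart. H3f3a, whose tagged and untagged transcripts are summed in 1 value, does not check the genotype labels.

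RefSeq promoters were found for 6 of the 10 genes (Fos, Fosb, Jun, Junb, Atf3 and Dusp1; not Egr1, Egr3, Ier2 or Arc). The 250 bases before the transcription start are shown for Fos, Junb and Dusp1, which varied together across K27M tumors, and for Atf3, which differed between genotypes in hindbrain cultures. Coordinates are of GRCm38.p6, and sequences run 5′ to 3′ on the strand of the gene. Capitals mark TGACG, the core of the cyclic AMP response element, read on either strand (CGTCA on the other), its full palindrome TGACGTCA, and the TATA motif TATAAA.
Fos promoter, chr12:85473640-85473889, plus strand: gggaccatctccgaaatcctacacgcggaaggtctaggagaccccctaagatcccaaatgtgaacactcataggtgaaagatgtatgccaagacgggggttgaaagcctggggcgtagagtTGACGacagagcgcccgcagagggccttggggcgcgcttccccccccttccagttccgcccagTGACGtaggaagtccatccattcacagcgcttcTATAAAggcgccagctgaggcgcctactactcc
Junb promoter, chr8:84978749-84978998, minus strand: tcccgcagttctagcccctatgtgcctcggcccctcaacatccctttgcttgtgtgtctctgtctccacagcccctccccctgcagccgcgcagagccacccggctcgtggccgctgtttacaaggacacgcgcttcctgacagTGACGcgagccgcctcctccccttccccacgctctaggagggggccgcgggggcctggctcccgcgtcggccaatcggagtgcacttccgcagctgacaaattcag
Dusp1 promoter, chr17:26508473-26508722, minus strand: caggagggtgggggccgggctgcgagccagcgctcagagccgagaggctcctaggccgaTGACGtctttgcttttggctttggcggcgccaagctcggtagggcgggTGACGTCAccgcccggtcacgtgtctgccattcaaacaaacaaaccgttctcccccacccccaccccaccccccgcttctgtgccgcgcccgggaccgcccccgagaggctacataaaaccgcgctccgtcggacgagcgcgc
Atf3 promoter, chr1:191183334-191183583, minus strand: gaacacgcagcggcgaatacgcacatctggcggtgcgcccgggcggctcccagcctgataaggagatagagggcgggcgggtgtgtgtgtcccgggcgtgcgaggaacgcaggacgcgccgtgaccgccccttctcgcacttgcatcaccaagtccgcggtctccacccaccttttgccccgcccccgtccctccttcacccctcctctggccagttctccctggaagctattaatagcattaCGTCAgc
TGACG was present in this window in 5 of the 6 promoters and in 17.8% of 32851 mouse promoters of the same length, both strands searched. Fos held 2 copies, starting 129 and 66 bases before the start site, and TATAAA 33 bases before it, a motif found in 12.4% of promoters. Dusp1 held TGACG 191 bases before the start and the full TGACGTCA at 143 bases, which contains overlapping matches on both strands and occurred in 1.55% of promoters. Junb held TGACG at 106 bases, Fosb at 60 and Atf3 at 7, and Jun held none in this window. CCAAT was found in Jun and Junb (33.8% of promoters), and neither TGANTCA (6.75% of promoters) nor a CArG box, the serum response element core (1.47%), was found in any of the 6 windows. These letter matches describe the sequence and do not show binding. Sequence farther than 250 bases before the start was not searched, so a motif absent here may lie there.

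The levels placed most of these genes in 2 ranges, low in tumors and high in cultures. Fos, the partner that pairs with Jun proteins to form AP-1, had the highest level of the 10 in cultures, and in K27M tumors its mean (40.4 ± 24.1 FPKM, SD) lay below that of Jun (52.9 ± 37.4). Its lowest, median and highest FPKM were 11.5, 38.3 and 113 among the 20 tumors with K27M and 12.6, 40.8 and 58.3 among the 9 with WT-Tag. In cultures from experiments 1, 2 and 3 it was 445, 524 and 248 FPKM in K27M forebrain, 336, 417 and 390 in WT-Tag forebrain, 264, 290 and 481 in K27M hindbrain and 253, 305 and 307 in WT-Tag hindbrain. Every culture thus lay above every tumor for Fos, and among the cultures only the WT-Tag hindbrain group lay wholly below another, the WT-Tag forebrain group. The means of the 4 culture groups stood above both tumor means for every gene but Atf3. Fosb, its relative, reached at most 1.44 FPKM among K27M and 1.59 among WT-Tag tumors (medians 0.218 and 0.203) and ran from 10.3 to 34.3 FPKM in cultures. Jun, the central AP-1 subunit, ran from 17.1 to 147 FPKM in tumors and from 53.5 to 95.6 in cultures. Junb, a Jun relative with weaker activity, ran from 8.33 to 102 FPKM in tumors and from 54.4 to 118 in cultures.

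Egr1, a zinc finger factor induced by growth factors and synaptic activity, had tumor medians of 4.41 FPKM with K27M and 6.67 with WT-Tag and ran from 35.7 to 88.2 in cultures. Egr3, a target and relative of Egr1, had tumor medians of 0.970 and 0.951 FPKM and culture values of 6.64 to 14.7. Ier2, a small nuclear protein of the early response, had tumor medians of 9.21 and 10.98 FPKM and culture values of 44.5 to 125. Dusp1, the phosphatase that inactivates MAP kinases, had tumor medians of 8.22 and 8.09 FPKM and culture values of 15.3 to 33.8. Arc, which acts at synapses to remove glutamate receptors, ran from 0.532 to 4.48 FPKM among K27M tumors, from 0.458 to 7.21 among WT-Tag tumors and from 8.63 to 54.6 in cultures. Atf3, a stress-induced factor of the ATF family, did not follow this order: its tumor medians were 19.3 FPKM with K27M and 14.5 with WT-Tag, and its culture values ran from 5.26 to 23.8.

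**Figure D1:**
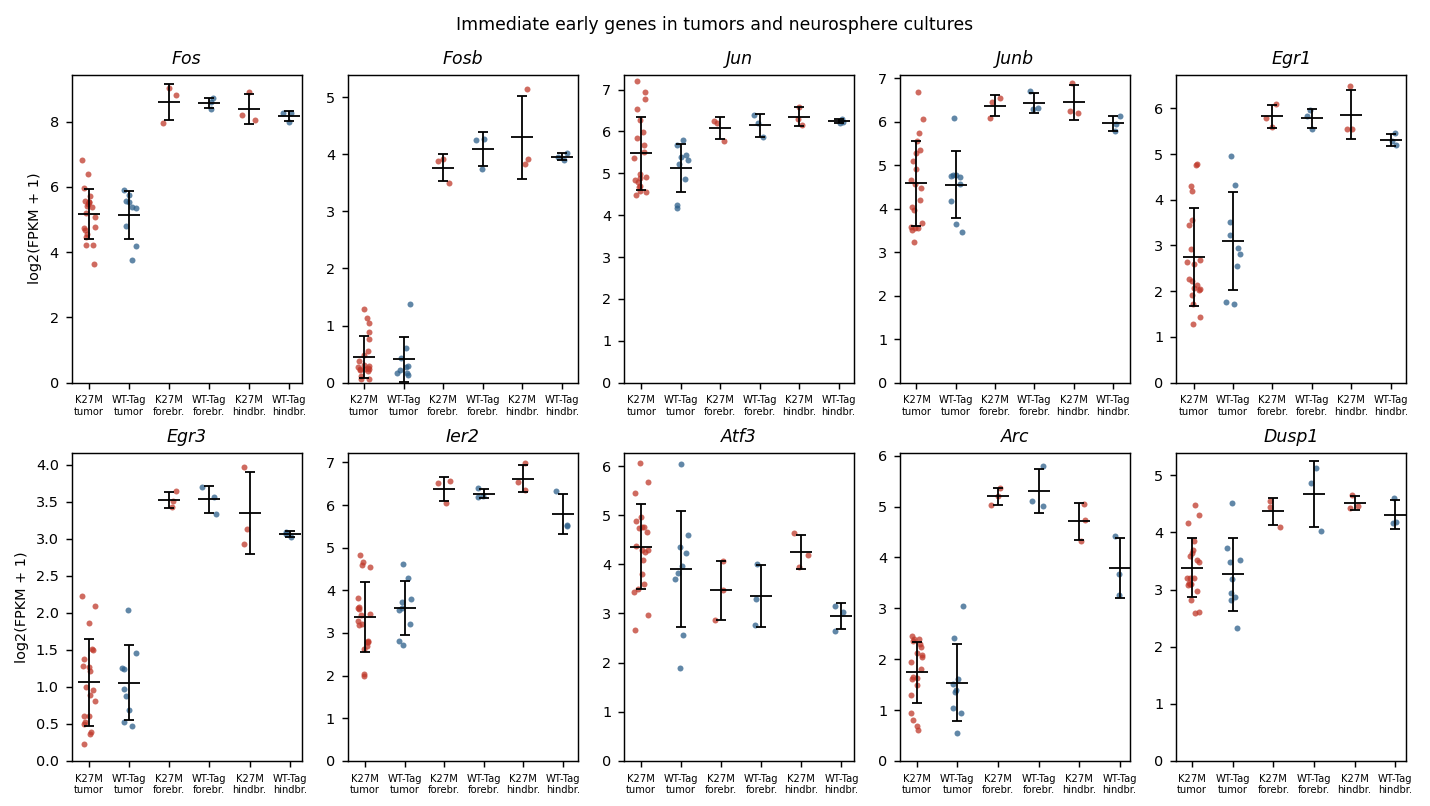
Level of each of the 10 genes as log2(FPKM + 1) on the vertical axis in the 6 groups, with 1 dot per library (20 and 9 tumors, 3 cultures per group) and the group mean ± SD in black. Fos, Fosb, Egr1, Egr3, Ier2 and Arc lie higher in every culture than in every tumor, and Atf3 does not.

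The first comparison asked whether the genes differed between K27M and WT-Tag tumors. They did not pass the test: 0 of the 9 members with enough signal were called, against 0.0846% of all 15360 genes tested, and 0 had an unadjusted p below 0.05 (limma). The largest differences were 0.45 ± 0.37 (SE) for Atf3 and −0.34 ± 0.41 for Egr1 on the log2(FPKM + 1) scale, on which changes of low genes are understated. Adjusted p-values ran from 0.810 to 0.999 (limma). The 95% interval of the difference was −0.57 to 0.63 for Fos, −0.69 to 0.74 for Junb, −1.18 to 0.49 for Egr1 and −0.30 to 1.21 for Atf3, so log2 differences within these intervals were not excluded. Ranges of the genotypes overlapped for all 10 genes (they lay apart for 0% of all genes tested), and the number of K27M tumors above the median of the WT-Tag tumors was 14 of 20 for Atf3, 15 for Arc and 6 for Egr1. Fosb did not reach 1 FPKM in enough tumors to be tested. Nothing in the labels says which tumors shared a litter or a day. The p-values treat the tumors as independent, and they may be too small if litters or days were shared.

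The other early response genes were also not called in tumors. Of 10 other AP-1 and ATF factors tested, 0 were higher and 0 lower (median log2 change 0.04), and Jdp2 and Fosl2 stood at 0.19 and 0.14. Of 15 other early transcription factors, 0 were called (median 0.04), with Egr2 at −0.61 and Klf10 at −0.39. The 27 other effectors and brakes and the 9 other dual-specificity phosphatases likewise gave 0 calls (medians of 0.02 each), as did the 19 upstream regulators (median −0.01). Plk2 (−0.47) and Tnfaip3 (0.42), Dusp6 (−0.68) and Dusp4 (−0.61), and Crem (−0.37) and Mapk9 (0.25) had the largest estimates of those lists. Of 9 other activity-induced neuronal effectors 0 were called (median 0.10; Vgf, 0.43; Nrn1, 0.35). The median over all genes tested was −0.01.

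In forebrain cultures, which asked the same of embryonic precursors, 0 of the 10 genes were called (0.356% of 13190 genes tested were). Estimates ran from −0.33 for Fosb to 0.12 for Atf3, with 0 genes at an unadjusted p below 0.05 and adjusted p-values of 0.630 to 0.994 (limma). Dusp1 was 20.8, 22.5 and 16.2 FPKM in the K27M cultures of experiments 1 to 3 and 15.3, 33.8 and 28.4 in the WT-Tag cultures. Arc was 40.3, 36.1 and 31.7 FPKM against 54.6, 33.4 and 31.2. Genotype ranges overlapped for all 10 genes, where they lay apart for 24.9% of all genes tested. Of the 86 other early response genes, activity effectors and upstream regulators tested, 0 were called in forebrain cultures, with Ctgf (0.97), Cebpd (−0.72) and Zfp36 (−0.62) at the largest estimates.

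Hindbrain cultures gave 2 calls among the 10 genes. A direct test, given below, did not show these changes to differ from those in forebrain. Atf3 and Ier2 were higher in K27M than in WT-Tag hindbrain cultures. Of 13190 genes tested there, 13.5% were called in either direction and 8.42% were called higher. All 10 estimates were positive, with a median log2 change of 0.41 against 0.09 over all genes tested. Atf3 was 17.2, 23.8 and 14.4 FPKM in K27M cultures of experiments 1 to 3 and 7.93, 7.21 and 5.26 in WT-Tag cultures, so the lowest K27M culture lay above the highest WT-Tag culture. Its mean was 2.71 times as high, a log2 change of 1.31 ± 0.34 (SE; limma adjusted p = 0.0307). Ier2 was 91.6, 81.1 and 125 FPKM in K27M cultures and 79.0, 45.2 and 44.5 in WT-Tag cultures. The ranges lay close but apart, and the log2 change was 0.84 ± 0.23 (limma adjusted p = 0.0372). Both calls were lost without experiment 3, in which sex and genotype differed together: Ier2 then stood at 0.52 (limma adjusted p = 0.314) and Atf3 at 1.31 (0.169). With no filter on low values neither passed (limma adjusted p of 0.0872 and 0.0770). When 1 of the 6 libraries was left out, adjusted p-values ran from 0.0214 to 0.109 for Atf3 and from 0.00253 to 0.144 for Ier2 (limma), and each lost its call in 4 of the 6 omissions.

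Arc was 32.3, 25.7 and 19.1 FPKM in K27M hindbrain cultures and 20.5, 11.7 and 8.63 in WT-Tag hindbrain cultures. Within each experiment the K27M culture was the higher, although the ranges overlapped, and the log2 change was 0.92 ± 0.29 (limma adjusted p = 0.0610). With the experiment id as a replicate block, Arc passed at an adjusted p of 0.00555 (limma), beside Atf3 (0.00811) and Ier2 (0.0408). It also passed without the WT-Tag culture of experiment 1 (limma adjusted p = 0.00611). Junb (74.3, 72.3 and 118 against 69.3, 54.4 and 61.1 FPKM) and Egr1 (45.7, 46.0 and 88.2 against 42.8, 38.1 and 35.7) had ranges that did not overlap but did not pass, with log2 changes of 0.48 ± 0.20 and 0.55 ± 0.23 (limma adjusted p of 0.130 and 0.138). The ranges lay apart, K27M higher, for 4 of the 10 genes in all and for 16.9% of all genes tested. The K27M culture of experiment 3 was the highest of the 6 for Fos, Fosb, Jun, Junb, Egr1, Egr3, Ier2 and Dusp1, with Fosb at 34.3 FPKM where the other 5 stood between 13.3 and 15.3, and Egr3 at 14.7 where they stood between 6.64 and 7.74. Atf3 and Arc were at their lowest K27M value in that same culture. Without experiment 3 the median log2 change of the 10 genes was 0.12.

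**Figure D2:**
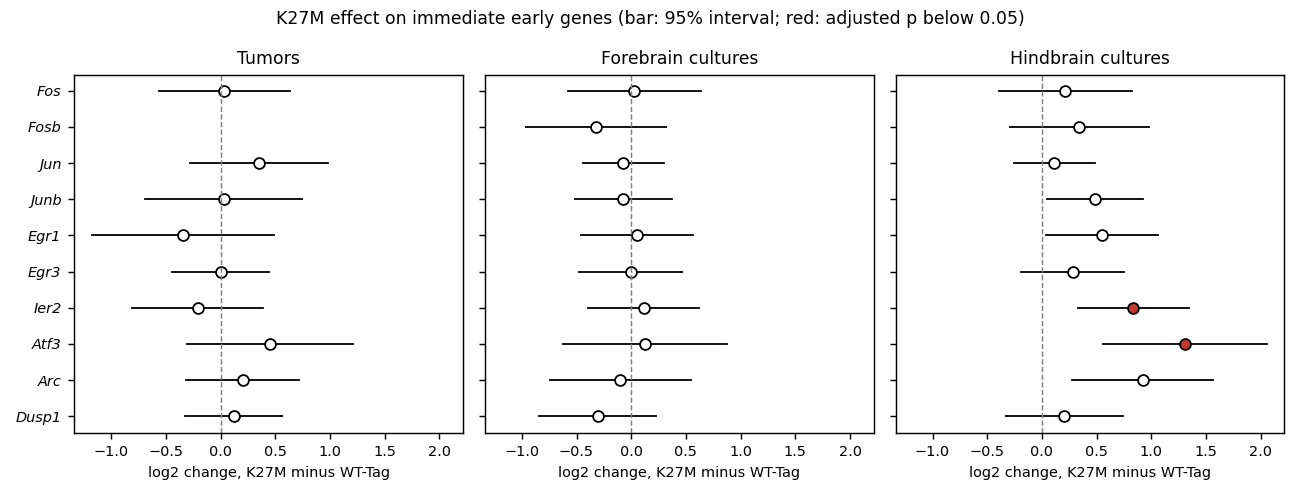
Difference between K27M and WT-Tag as a log2 change (horizontal axis) for each gene in tumors, forebrain cultures and hindbrain cultures, with limma 95% intervals as bars and red points for an adjusted p below 0.05. The 2 red points are Atf3 and Ier2 in hindbrain cultures, and Fosb has no point in tumors because it was not tested there.

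Relatives of the 10 genes were called in the same hindbrain comparison. Of 9 other AP-1 and ATF factors tested, 5 were higher and 0 lower in K27M cultures (median log2 change 0.59), among them Jund (1.02), Maff (0.94), Batf3 (0.85) and Atf4 (0.82), the last a factor of the amino acid and unfolded protein response. Among 16 other early transcription factors 4 were higher and 0 lower (median 0.52), namely Egr2 (1.09), Nfil3 (1.04), Csrnp1 (0.70) and Klf6 (0.62). Of 27 effectors and brakes 7 were higher and 0 lower (median 0.36), led by Ctgf (1.71), Cyr61 (1.31), Plk2 (1.00) and Plk3 (0.78). The first pair encode secreted matrix proteins and the second pair polo-like kinases. Of 8 other dual-specificity phosphatases 3 were higher (Dusp10, 0.79; Dusp4, 0.51; Dusp16, 0.36). The 19 upstream regulators gave 2 higher, Elk3 (0.72) and Mapk3 (0.61), and 1 lower, Rps6ka1 (−1.19). Of 7 other activity-induced neuronal effectors 1 was higher, Nptx2 (1.73), a secreted synaptic pentraxin. Each list is read beside the 8.42% of all genes called higher. Some of these calls lay close to the threshold, such as Batf3 and Atf4 (limma adjusted p of 0.0458 and 0.0494). Calls of single relatives under the alternatives were not examined. Over all genes, this comparison gave 1787 calls, and 554 to 4212 when 1 library was left out.

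Other marker lists moved in the same cultures, where 13.5% of all genes tested were called in either direction and 8.42% were called higher. Calls of single markers under the alternatives were not examined either. Heat shock genes summed to 982 to 1222 FPKM in K27M and 791 to 1133 in WT-Tag hindbrain cultures, and 2 of 10 were called higher (Hspa1b, 1.30; Hspb1, 0.81). Of 11 astrocyte markers 9 were lower and 0 higher, and their sum was 340 to 383 FPKM in K27M against 649 to 899 in WT-Tag hindbrain cultures. Mature oligodendrocyte markers were lower for 3 of 7 tested and summed to 22.6 to 32.9 against 38.7 to 112 FPKM, with Mog, Mobp and Ermn under 0.1 in every K27M hindbrain culture. Of 8 oligodendrocyte precursor markers 4 were lower, led by Gpr17 (−2.33), and they summed to 551 to 602 against 569 to 750 FPKM. Among 9 neural stem and progenitor genes Vim (1.16) and Nes (0.89) were higher and Fabp7 (−0.77) was lower, the neuron marker Dlg4 was higher (0.74; 1 of 5 tested), and En2, the hindbrain identity gene tested, was lower (−0.90). None of the 4 pericyte and fibroblast and 2 microglial markers tested were called. The median relative depth of the hindbrain cultures was 0.790 with K27M and 1.00 with WT-Tag. The part of cell makeup, heat shock and depth in the changes of Atf3 and Ier2 was not tested.

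The difference between the hindbrain and the forebrain effect was tested directly. It was positive for all 10 genes (median 0.53 against 0.04 over all genes), largest for Atf3 (1.18), and 0 of 10 passed, against 0.0379% of all genes; 3 had an unadjusted p below 0.05 and the smallest adjusted p was 0.732 (limma). The hindbrain changes were therefore not shown to differ from those in forebrain. Between regions of WT-Tag cultures, Arc was the 1 gene of 10 called and was lower in hindbrain, where 1.82% of all genes were called and 0.713% were called lower. It was 54.6, 33.4 and 31.2 FPKM in forebrain and 20.5, 11.7 and 8.63 in hindbrain, with ranges apart, a 2.92-fold difference of the means and a log2 change of −1.51 ± 0.29 (limma adjusted p = 0.0232). That call was lost with no filter (0.0650) and without experiment 3 (0.173; limma), and the log2 change was then −1.51 and −1.40. It was lost in 4 of 6 omissions of 1 library, with limma adjusted p-values of 0.00387 to 0.0893 over the 6. Activity effectors Nrn1 (−3.66) and Nptx2 (−2.10) were lower in WT-Tag hindbrain cultures as well, 2 of 7 tested. In K27M cultures 0 of 10 genes differed between regions, where 7.92% of all genes did, and Arc stood at −0.50 ± 0.29 (limma adjusted p = 0.375). Nrn1 was lower in K27M hindbrain cultures too (−3.26), and of the 86 other early response genes, activity effectors and upstream regulators 9 were higher and 3 lower there, against 1 and 4 in WT-Tag cultures. Blocking on the culture letter that the labels share between regions gave 1 call there, Atf3, higher in hindbrain by 0.78 (limma adjusted p = 0.0474, against 0.208 without the block).

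Tumors and hindbrain cultures of one genotype differ in source, growth, handling, Cre driver, receptor and Trp53, which cannot be told apart, so these differences describe the 2 settings. In K27M, 8 of the 10 genes were lower in tumors, where 59.6% of 16803 genes were called and 26.5% were called lower, and the median log2 change was −2.63 against 0.10 over all genes. Fosb changed most (−3.85 ± 0.24), its mean in cultures being 49.6 times that in tumors, followed by Ier2 (−3.25 ± 0.41; 8.90 times), Fos (−3.22 ± 0.42; 8.55 times), Egr1 (−3.11 ± 0.57; 7.50 times) and Arc (−2.97 ± 0.36; 9.85 times). Egr3 (−2.29), Junb (−1.86) and Dusp1 (−1.13) were lower too, with limma adjusted p-values between 2.91e-16 and 0.00208 over the 8 genes. For Fos, Fosb, Egr1, Egr3, Ier2 and Arc no tumor reached the lowest hindbrain culture of its genotype, which was so for 15.8% of all genes tested in K27M and 8.81% in WT-Tag, and in WT-Tag this held for Jun too. Jun (−0.88 ± 0.42; limma adjusted p = 0.0719) and Atf3 (0.11 ± 0.53; 0.870) were not called.

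In WT-Tag, 9 of the 10 genes were lower in tumors (46.3% of all genes called, 17.4% lower; median −2.10 against 0.16), from Fosb at −3.55 ± 0.25 to Dusp1 at −1.05 ± 0.33. Atf3 stood at 0.96 ± 0.57 (limma adjusted p = 0.160), with its mean in cultures at 0.354 times that in tumors. Jun (−1.12, adjusted p = 0.0433) and Junb (−1.41, 0.0264; limma) lost their calls when any 1 of the 3 WT-Tag hindbrain cultures was left out (limma adjusted p of 0.102 to 0.106 and 0.0566 to 0.0971), and Dusp1 lost its call without culture 2 (−0.90, 0.0695), so that 6 or 7 genes were then called. The genotype effect did not differ between tumors and hindbrain cultures for any of the 10 genes by the test (0.583% of all genes did; smallest adjusted p 0.663, limma, and 0 at an unadjusted p below 0.05). Relatives moved both ways. Of 92 other early response genes, activity effectors and upstream regulators, 21 were higher and 31 lower in K27M tumors. In WT-Tag tumors 25 were higher and 18 lower. Among them, the 27 effectors and brakes gave 5 higher and 8 lower in K27M and 7 higher and 5 lower in WT-Tag. The 10 activity effectors gave 5 higher and 3 lower in K27M. Btg2, an antiproliferative early gene, was lower in K27M tumors by 4.29 and in WT-Tag tumors by 3.83 on the log2 scale. Sgk1, a kinase induced by glucocorticoids, was higher by 3.06 and 2.83. Of 16 other early transcription factors 9 were lower and 3 higher in K27M tumors (Hes1, −3.50; Egr2, −3.41; Egr4, −2.76; Klf10, −2.26), and of 9 other dual-specificity phosphatases 5 were lower and 1 higher (Dusp6, −2.20; Dusp5, −1.78). Other AP-1 and ATF factors were split, 4 higher and 3 lower of 11 in K27M tumors (median 0.44). These K27M lists are read beside the 59.6% of all genes called and the 26.5% called lower in K27M. The split of the AP-1 and ATF factors was near that of all genes. Neuron markers were nearly lacking in cultures (13.3 to 22.99 FPKM summed over 14 genes) and summed to 73.7 to 1005 in tumors, and heat shock genes summed to 791 to 1226 FPKM in cultures and 482 to 972 in tumors. The part of these in the differences was not tested.

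Within the tumors the genes varied widely. The SD within genotypes on the log2 scale was 1.07 for Egr1, 0.97 for Atf3, 0.92 for Junb, 0.80 for Jun, 0.77 for both Ier2 and Fos, 0.65 for Arc and 0.56 for both Egr3 and Dusp1, against a median of 0.38 over 15360 genes. For Egr1, 97.2% of the 1000 genes of most similar level varied less, and for Egr3, at the low end of the 9, 77.0% did. They also varied together. In the 20 K27M tumors 27 of the 45 pairs were correlated past the threshold (permutation tests, adjusted over 90 pairs in both genotypes), all 27 positively, with a median r of 0.61 over the 45 pairs. The share of all gene pairs that would pass in these tumors was not computed, so the count has no background beside it. The closest pair was Junb and Ier2, with Pearson r = 0.933 and Spearman rho = 0.940 (n = 20; permutation p = 1e-05 for each, the smallest that the resamples can give; adjusted p = 0.000225), and r = 0.903 without the 2 tumors farthest from the median of Junb. K27M tumor 14 was the highest for both Junb (102 FPKM) and Ier2 (27.2 FPKM). Fos and Ier2 (r = 0.891), Egr1 and Ier2 (0.888), Junb and Egr1 (0.877), Junb and Dusp1 (0.848) and Fos and Junb (0.840) followed, with r from 0.759 to 0.855 without the 2 farthest tumors. Fos, Junb and Ier2 each passed with 8 of the 9 other genes, and Jun and Atf3 with 4 each.

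Arc was the exception. It passed with 0 of its 9 partners, with r from −0.39 (Atf3) to 0.23 (Dusp1) and a median of −0.05 in K27M tumors, and among the 36 pairs without Arc 27 passed. In the 9 WT-Tag tumors 4 of 45 pairs passed (exact permutation tests, same adjustment), with a median r of 0.40: Egr1 with Egr3 (r = 0.857, rho = 0.900), Junb with Ier2 (0.853, 0.80), Jun with Atf3 (0.794, 0.783) and Jun with Junb (0.765, 0.600). Adjusted p-values were 0.0135, 0.0155, 0.0292 and 0.0391 in the exact tests. Both relations of Jun rest on 2 tumors, since r fell to 0.317 and 0.361 without those farthest from the Jun median. The first and second kept r = 0.845 and 0.867. The count of 4 pairs was 1 without tumor 26, 8 without tumor 7 and 7 without tumor 28. Whether correlations differed between genotypes was not tested, and with 9 tumors only strong ones can pass. No tumor batch is given in the labels, so no value within batches can be given.

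**Figure D3:**
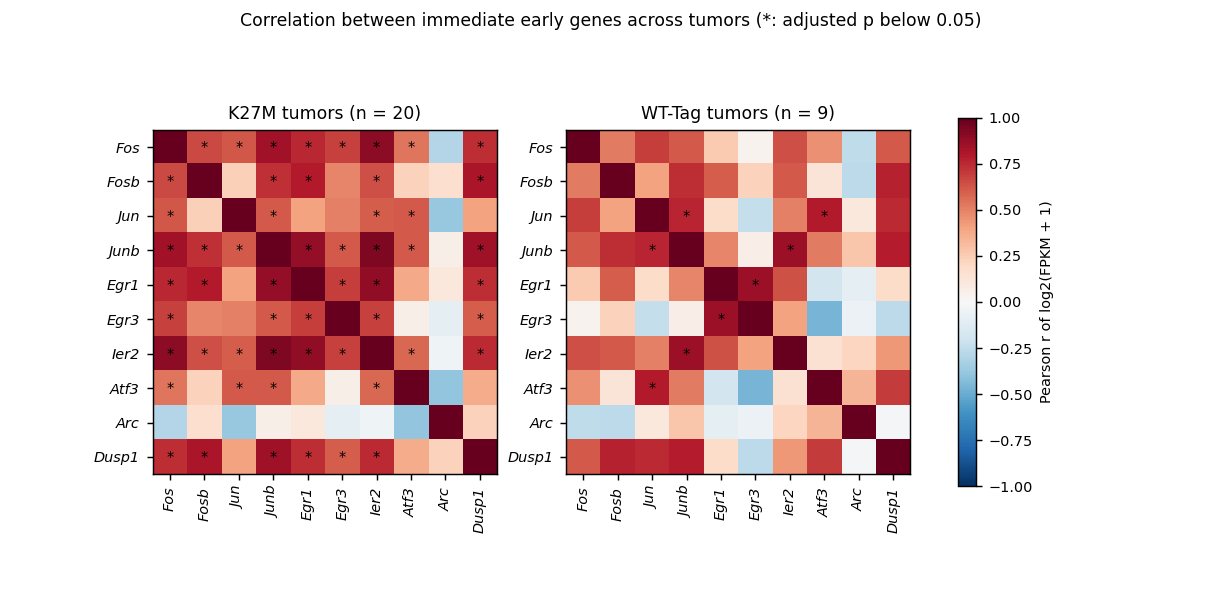
Pearson r between the 10 genes over 20 K27M tumors (left) and 9 WT-Tag tumors (right), on log2(FPKM + 1), from blue (−1) through white to red (1), with an asterisk where the adjusted permutation p was below 0.05. All but the Arc row hold asterisks on the left (27 pairs), and 4 pairs hold them on the right.

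Marker genes of other cells were set against each of the 10 genes in the K27M tumors, with 6 lists and 60 relations. Of these 3 passed, and all 3 were of Arc. How many of all genes would pass with each list was not computed, so these relations are not shown to be particular to Arc. Arc followed the mean log2 level of 14 neuron markers with r = 0.874 and rho = 0.836 (n = 20; permutation p = 1e-05, the smallest possible, and 3e-05; adjusted p = 0.000600), and r = 0.806 without the 2 tumors farthest from the median of the markers. The summed neuron markers themselves ranged from 92.8 to 1005 FPKM over these tumors. Arc also passed with astrocyte (r = 0.719, rho = 0.687, permutation adjusted p = 0.0108; 0.602 without the 2 farthest) and mature oligodendrocyte markers (r = 0.714, rho = 0.671, permutation adjusted p = 0.0108; 0.856). In WT-Tag tumors Arc and neuron markers had r = 0.149 (n = 9, exact permutation p = 0.714), and the difference between genotypes was not tested. The other 9 genes passed with none of the 6 lists. Fos had r = −0.42 with neuron markers (rho = −0.49, permutation adjusted p = 0.359, n = 20). Heat shock genes, a sign of stress or handling, had r from −0.45 (Arc) to 0.31 (Atf3) and 0 of 10 passed (smallest adjusted permutation p 0.359).

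**Figure D4:**
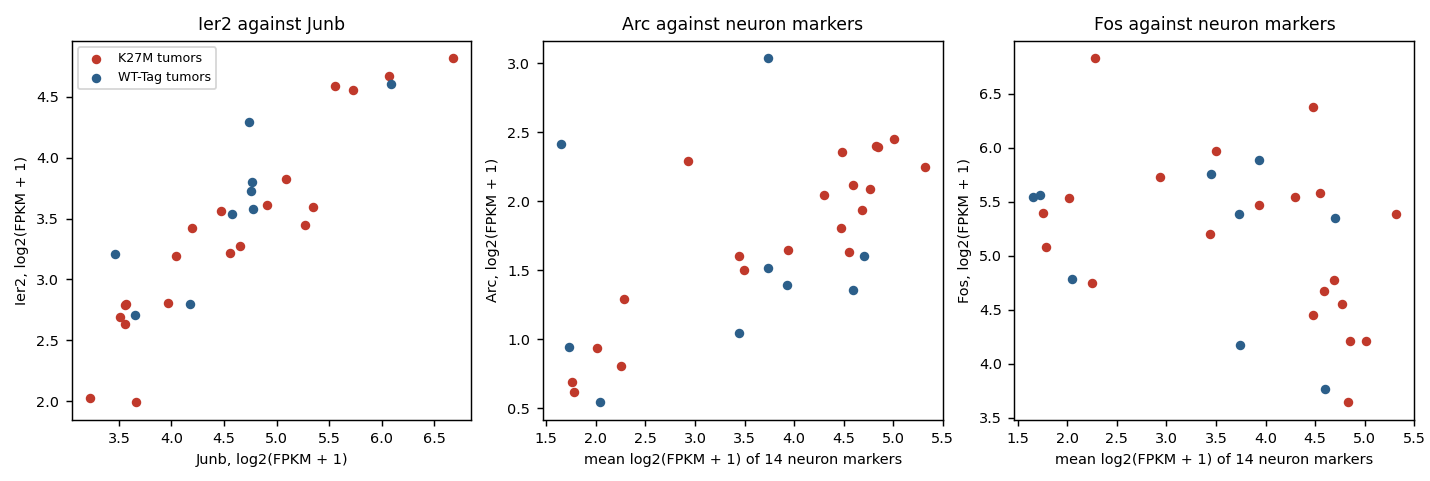
Each dot is a tumor, red for K27M (20) and blue for WT-Tag (9), on log2(FPKM + 1) axes. The panels plot Ier2 against Junb (r = 0.933 in K27M tumors), Arc against the mean of 14 neuron markers (r = 0.874) and Fos against the same mean (r = −0.42).

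The genes most like these 10 across the 29 tumors, by mean Pearson r with the 9 tested members after each genotype's mean was subtracted, were Zfp36, Klf6, Fosl2, Tnfrsf12a, Dusp5, Ccrn4l, Sbno2, Nfkbiz, Iffo2 and Ppp1r15a, with mean r from 0.65 to 0.62. The values share libraries and depth, so this is a description. All 10 had Junb as their closest member, with r = 0.94 for Zfp36, which encodes a protein that hastens decay of short-lived messenger RNAs, and 0.90 for Tnfrsf12a. Junb had a mean r of 0.64 with the other members, Ier2 0.61, Fos 0.54, Dusp1 0.52, Egr1 0.51, Jun 0.43, Egr3 0.36, Atf3 0.33 and Arc −0.05. Among non-members, Zfp36 (0.647), Klf6 (0.646) and Fosl2 (0.641) had a higher mean r with the members than Junb (0.639). Counted over all genes, 4 lay above Junb and 12 above Ier2. For Jun, Egr3, Atf3 and Arc the counts were 653, 1267, 1620 and 7568. These counts can include other members, whose mean there took in their correlation with themselves, so they can be slightly too high. Single closest genes were Gadd45g for Atf3 (r = 0.92), Egr2 for Ier2 (0.87) and Slc25a18 for Arc (0.79). Median mean r was 0.50 for the 27 other effectors and brakes, 0.49 for the 15 early transcription factors and 0.45 for the 10 other AP-1 and ATF factors, against −0.03 for 19 upstream regulators, −0.01 for 10 heat shock genes and −0.05 for all genes.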

How the data were processed

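Total RNA was extracted with Trizol and sequenced after a stranded total RNA library preparation, per the labels' protocols. Per the submitters' processing notes, the tools included TopHat2, STAR and CASAVA, with the mm9 genome. What counted the reads, and whether by strand, is not stated in these sources. FPKM values for 41 libraries were deposited by the authors with 3 decimals.

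These were tested as log2(FPKM + 1) with limma 3.58.1 (R 4.3.3), 2-sided, with a mean-variance trend and Benjamini-Hochberg adjustment over all genes tested, at a threshold of 0.05. Genes needed an FPKM of at least 1 in 9 tumors, or in 3 libraries for the cultures and for the fit of all libraries. The 12 cultures shared 1 fit. Correlations used permutation tests written with numpy 2.4.6, with ranks from scipy 1.17.1, 100000 resamples for 20 tumors and exact enumeration for 9. The scripts were tested on simulated data. All 10 members were named, and from each other list the called genes with the largest change, at most 4, or else the 2 largest estimates. Members and lists were chosen with earlier results of these data known. The experiment id is shared by cultures in the labels, and the deviations of same-numbered hindbrain cultures correlated at 0.412, 0.152 and 0.438, and of forebrain cultures at 0.443, −0.234 and 0.352. Differently numbered cultures reached 0.094 in hindbrain and 0.441 in forebrain. Between regions, cultures of one letter correlated at 0.668, 0.712 and 0.165 in WT-Tag and at 0.216, −0.0471 and −0.0405 in K27M. The main fit treated all cultures as independent. Alternatives were pseudocount, filter, scaling, trend, sex, blocks, library omissions and the samples fitted together. Mm9 coordinates were not used.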

Additional observations from a re-analysis of the deposited data

Results flagged for a closer look

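Of 10 genes examined for an outlying library in the 9 WT-Tag tumors, 2 had one, and chance alone flags about 1 in 20 such groups. WT-Tag tumor 29 was far above the other 8 for Fosb, at 1.585 FPKM, and for Junb, at 67.147 FPKM. The gap to the next tumor was 0.617 of the whole range for Fosb and 0.502 for Junb on the log2(FPKM + 1) scale, both past the 95% limit of Dixon's test. The same tumor was the highest WT-Tag tumor for Fos, Egr1, Ier2 and Dusp1.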

How the results depend on the processing

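Of 1323 estimates of single genes under the alternatives, 27 lost a call, 4 gained one and 0 called changes turned direction; 88 changed sign, none of them passing in either fit. For K27M against WT-Tag in hindbrain cultures, 2 genes were called, and 0 with no filter, 0 without experiment 3, 1 with that region fitted alone, and from 0 to 3 when 1 library was left out. Atf3 lost its call without K27M cultures 1 or 2 or WT-Tag cultures 2 or 3, and Ier2 without K27M cultures 1 or 3 or WT-Tag cultures 2 or 3. With the replicate block 3 genes were called (Arc added). For hindbrain against forebrain in WT-Tag the count of 1 became 0 with no filter and 0 without experiment 3, and 0 to 1 over omissions; Arc lost its call without forebrain culture 1 or 2 or hindbrain culture 2 or 3. In K27M it was 0, 1 with the replicate block by culture letter, and 0 to 1 over omissions (Egr3 called, at −0.50, without K27M hindbrain culture 3, limma adjusted p = 0.0443). The replicate block changed no other member's call. The cause of these changes was not tested. Pairs correlated in WT-Tag tumors numbered 4, and 1 to 8 over omissions.

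Over all genes, hindbrain calls numbered 1787 (1111 higher, 676 lower), 1045 with no filter, 97 without experiment 3, 286 with the region alone and 554 to 4212 over omissions. Upper-quartile scaling gave 960 higher and 1049 lower and moved the median of all genes from 0.09 to −0.01, with Atf3 at 1.20 and Ier2 at 0.73, both still called. Tumor calls numbered 13, 26 with no filter, 8 without WT-Tag tumors 8 and 9, 0 in females alone and 8 to 18 over omissions. Forebrain calls numbered 47, 0 without experiment 3, 80 with the region alone and 20 to 37 over omissions. The difference between regions gave 5, 8 with no filter, 0 with pseudocount 0.1, the block or experiment 3 omitted, and 0 to 295 over omissions. WT-Tag region calls numbered 240, 68 without experiment 3 and 122 to 580 over omissions, and K27M region calls 1044, 315, and 493 to 756, with 502 under the culture block. The tumor-to-culture difference of effects gave 98, 363 with no filter, 64 with the groups fitted alone and 26 to 201 over omissions.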
